A study of Mus musculus with 12 samples.

Results

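The genes described here are 27 genes of cholesterol synthesis and its control by SREBP-2, measured in the livers of 12 mice on a high-fat diet (HFD). They were chosen by symbol and comprise 19 enzymes from acetyl-CoA to cholesterol, 5 regulators of SREBP-2 and its targets, and 3 genes of sterol transfer and esterification. Of the 27 symbols, 26 had a row of their own among the 23849 symbols of the table, and 25 passed the minimum mean of 1 FPKM that left 9806 genes to test. FPKM is a read count scaled by transcript length and by the reads of the library. Tm7sf2 shared a row with its neighbour Vps51 and is not counted, and Soat1 stayed below the minimum. RNA-seq was run on liver from male mice on a C57BL/6J background, 8 weeks old, which ate HFD for 6 weeks. For the last 2 weeks they were given 200 µl by daily oral gavage at zeitgeber time (ZT) 11, ZT0 being lights on. This was drinking water (vehicle) or Libramed at 20 mg/ml in it, a gel-forming blend of plant fibers that the study's methods call Policaptil Gel Retard. Livers were taken at ZT0 or ZT12 from 3 mice in each of the 4 groups (vehicle ZT0, vehicle ZT12, Libramed ZT0 and Libramed ZT12). All 4 groups ate HFD, so diet was not compared.

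Cells build cholesterol from acetyl-CoA through mevalonate, the isoprenoids, squalene and lanosterol. When the membrane of the endoplasmic reticulum is poor in sterol, the escort protein SCAP carries the transcription factor SREBP-2 to the Golgi, where it is cut and freed to switch on the genes of the pathway. When sterol is plentiful, INSIG1 and INSIG2 hold SCAP back. The liver is a main site of cholesterol synthesis, and in mice, which eat at night, the pathway is known to vary over the day.

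As a rough estimate from values of the lowest genes, the deepest and shallowest libraries differed 1.80-fold in depth, and no read totals were used. All 8 evening clock genes listed as a check of the time labels were higher at ZT12 over both treatments, 7 of them past the test, and their summed level was 28.0 to 67.6 FPKM at ZT0 and 168 to 242 FPKM at ZT12. The 8 hepatocyte markers summed to 34213 to 48317 FPKM, with albumin (Alb) listed at 0 in every liver. Fat markers summed to at most 1.30 FPKM, with 2 of 5 at 0 in all livers.

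Most of the pathway was well expressed. Averaged over the 12 livers, Ebp, the sterol isomerase, had the highest level at 205 FPKM, followed by Sc5d at 182 FPKM and Msmo1 at 156 FPKM, both late sterol enzymes, and by Fdps at 132 FPKM and Hmgcs1 at 125 FPKM, which act before squalene. The ranges of these 5 over the livers overlapped, and the order differed between groups. In the Libramed ZT0 livers Hmgcs1 (232 FPKM), Sc5d (227 FPKM) and Msmo1 (217 FPKM) had higher means than Ebp (204 FPKM). Insig1 averaged 87.6 FPKM and Insig2 75.5 FPKM. A middle tier held Pmvk (70.8 FPKM), Nsdhl (65.9 FPKM), Cyp51 (52.6 FPKM), Dhcr7 (52.2 FPKM), Fdft1 (45.2 FPKM), Mvd (43.3 FPKM), Scap (39.8 FPKM), Sqle (39.0 FPKM), Acat2 (34.8 FPKM) and Mvk (30.3 FPKM). Below them were Soat2 (24.8 FPKM), Srebf2 (16.8 FPKM), Hsd17b7 (13.97 FPKM), Lss (13.7 FPKM) and Stard4 (10.3 FPKM). The lowest were Idi1 (3.44 FPKM), Ggps1 (2.06 FPKM), Mylip (1.31 FPKM) and Soat1 (0.166 FPKM). The range of a gene over the livers was widest for Mvd, whose highest liver was 14.8 times its lowest, and for Hmgcs1, at 10.1 times. It was narrowest for Ebp, at 1.39 times, and Scap, at 1.42 times.

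**Figure D1:**
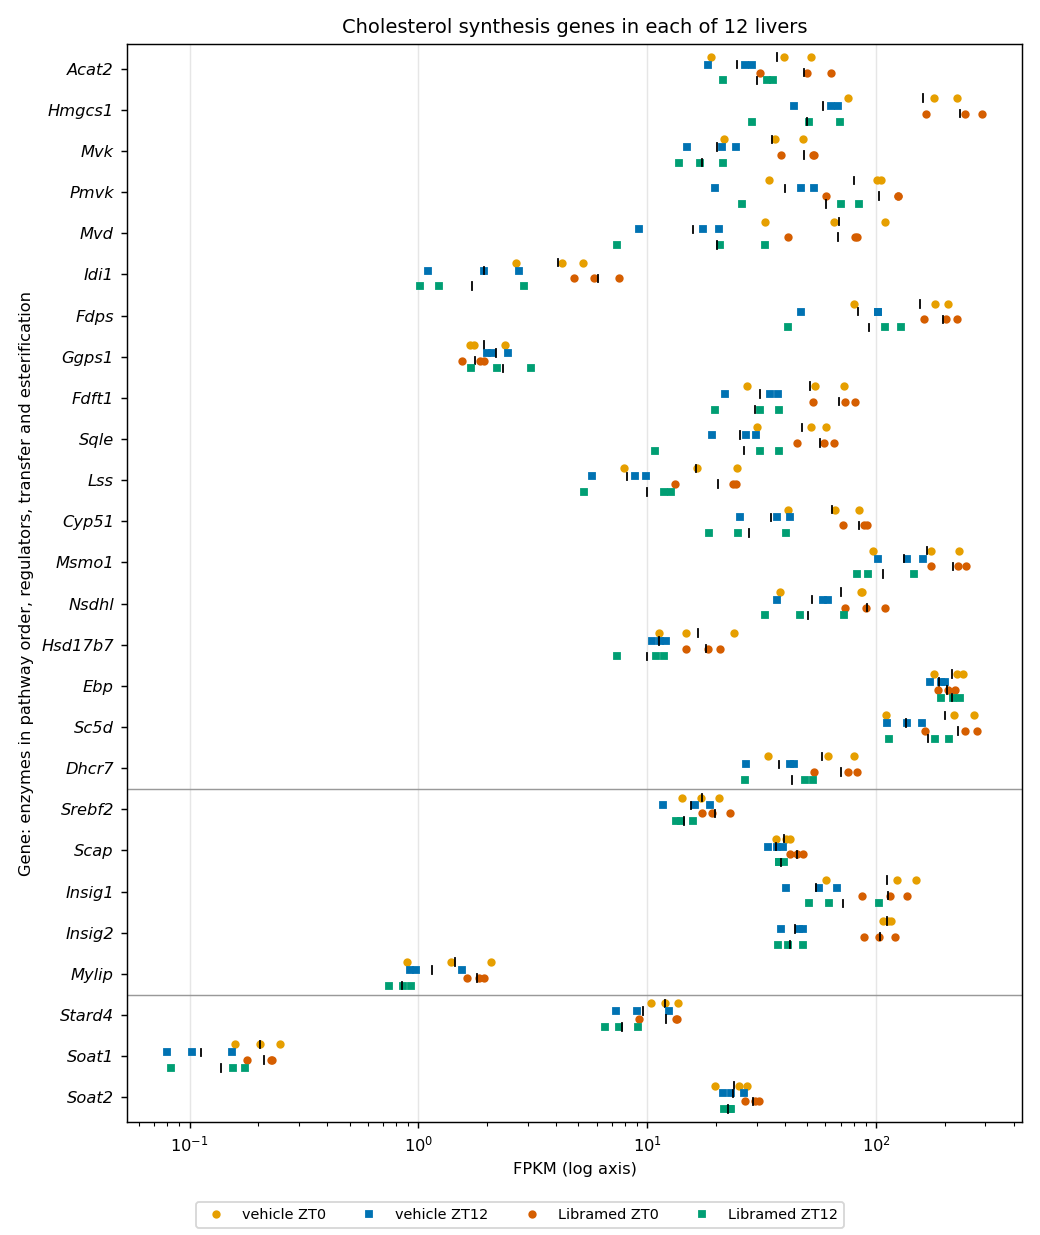
Level of each gene in FPKM (log axis) in every liver, with the 3 livers of each group as points and the group mean as a black tick. Enzymes stand in pathway order above the first grey line, regulators between the lines and sterol transfer and esterification genes below. The ZT12 points of Hmgcs1, Mvd and Insig2 lie to the left of all their ZT0 points, and the points of Ebp and Scap span only 1.39 and 1.42 times from the lowest to the highest liver.

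Within a group, the enzymes were high or low together from liver to liver. In each group a single liver was the lowest in 17 of the 18 enzymes tested: vehicle ZT0 replicate 2, vehicle ZT12 replicate 1, Libramed ZT0 replicate 1 and Libramed ZT12 replicate 3. In each of these livers the exception was Ggps1. Against the other livers of its group, the median enzyme had a log2 difference of -1.08 in vehicle ZT0 replicate 2, -0.77 in Libramed ZT12 replicate 3, -0.59 in vehicle ZT12 replicate 1 and -0.47 in Libramed ZT0 replicate 1. Over all genes tested the same medians were between -0.02 and 0.04 in all 12 livers. The median coefficient of variation of an enzyme was 40.0%, 24.2%, 20.4% and 36.6% in the vehicle ZT0, vehicle ZT12, Libramed ZT0 and Libramed ZT12 groups, where the median gene had 11.9%, 8.95%, 9.76% and 10.2%. Insig2 did not follow the enzymes either, with 107, 113 and 116 FPKM in the vehicle ZT0 livers. The summed stellate cell markers were also lowest of the group in vehicle ZT0 replicate 2 (32.6 against 57.6 and 59.9 FPKM), Libramed ZT12 replicate 3 (24.5 against 43.2 and 36.5 FPKM), Libramed ZT0 replicate 1 (49.7 against 67.1 and 58.4 FPKM) and vehicle ZT12 replicate 1 (30.0 against 30.7 and 46.7 FPKM). The hepatocyte sum was lowest of all in vehicle ZT0 replicate 2. Other cell types did not follow the stellate sums. Macrophage sums were highest of the group in vehicle ZT0 replicate 2 (49.2 FPKM) and vehicle ZT12 replicate 1 (52.9 FPKM). The macrophage sum was also highest in Libramed ZT0 replicate 1 (44.7 FPKM), but lowest in Libramed ZT12 replicate 3 (24.9 FPKM). Endothelial sums were highest in the same vehicle livers (36.3 and 23.1 FPKM) and lowest in the same Libramed livers (34.1 and 21.6 FPKM). The part of these cell types in the result was not tested.

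**Figure D2:**
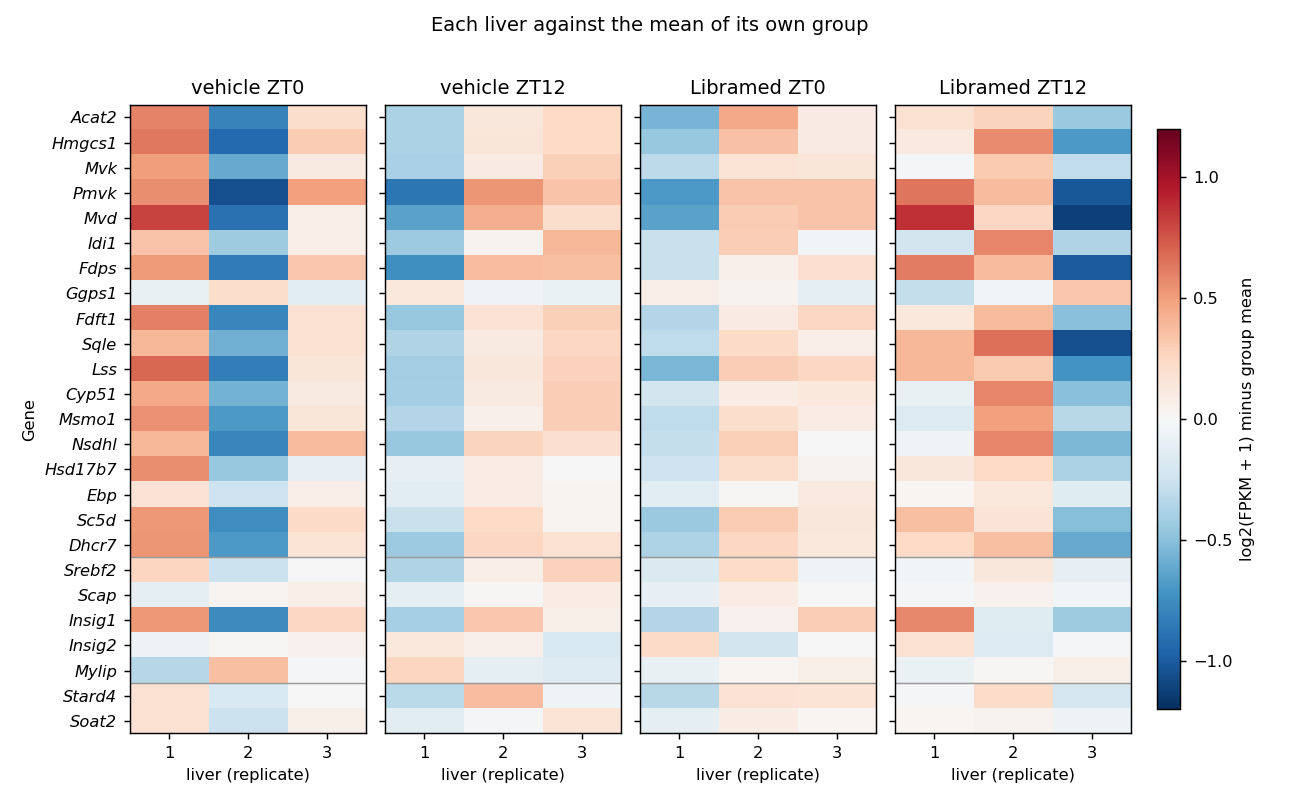
Each tile is 1 gene in 1 liver, coloured by its log2(FPKM + 1) minus the mean of its own group (red higher, blue lower), for the 25 genes tested and 3 livers in each of 4 groups. A blue column in each panel marks the liver that was lowest in 17 of 18 enzymes, and the rows of Ebp, Scap and Insig2 stay pale.

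The largest pattern was one of time. Gavage was given at ZT11 in all groups, so time of day and time since gavage cannot be told apart. Over both treatments, 24 of the 25 genes were lower at ZT12 than at ZT0, and 16 fell with an adjusted p under 0.05, none rising: 11 of 18 enzymes, 4 of 5 regulators and Stard4. Of all 9806 genes, 14.1% fell by that rule. At an unadjusted p under 0.05 in limma, 21 of the 25 fell, where 19.4% of all genes did. The study also set p under 0.05, but with another test and without stating whether p was adjusted, so its counts are not comparable. The median log2 fold change of the 25 was -0.65, against 0.0078 for all genes. All fold changes are on the scale of log2(FPKM + 1), which understates changes of low genes such as Idi1 and Mylip. In bulk liver, fewer cells of a type and less RNA per cell cannot be told apart. The count of 16 became 9 without Libramed ZT0 replicate 2 or replicate 3, 10 without vehicle ZT0 replicate 3, vehicle ZT12 replicate 1 or Libramed ZT12 replicate 3, and 21 without vehicle ZT0 replicate 2. Hmgcs1, Mvk, Mvd, Idi1, Fdft1, Sqle, Cyp51, Hsd17b7 and Insig2 passed with any 1 of the 12 livers left out.

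**Figure D3:**
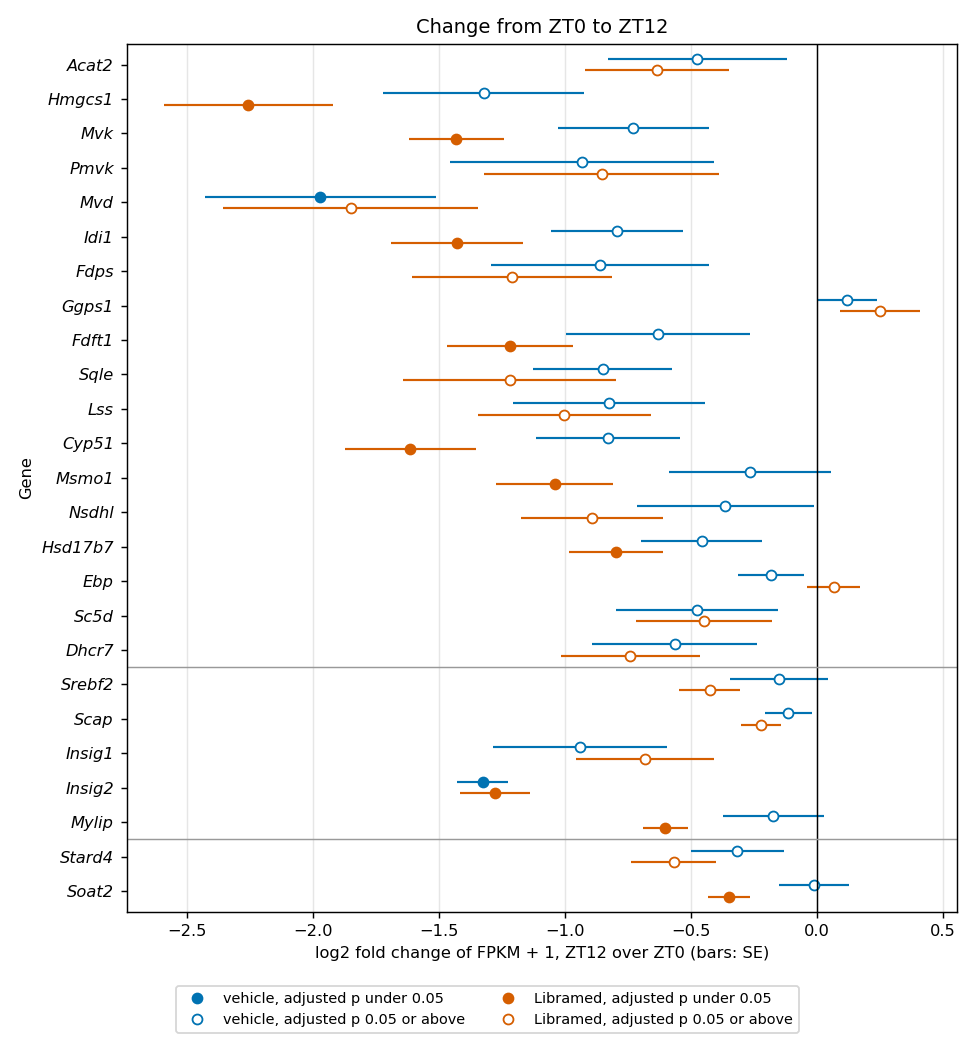
Log2 fold change of FPKM + 1 from ZT0 to ZT12 for the 25 genes tested, with bars of 1 SE, in vehicle livers (blue) and Libramed livers (orange), 3 livers at each time. Filled points have an adjusted p under 0.05, which is 2 genes under vehicle and 10 under Libramed. All but Ggps1 lie at or below 0 under vehicle, and all but Ggps1 and Ebp under Libramed.

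The stretches of DNA before the start sites of these genes can be read beside these values. The promoter table of RefSeq (GRCm38.p6, the build of the files) held windows of 250 bases before to 50 after the start for 22 of the 27 genes, without Fdps, Fdft1, Sqle, Stard4 and Soat2. A gene with several starts counted where any window held the motif. On both strands, 20 of the 22 (90.9%) held the NF-Y box CCAAT, as did 41.1% of the 27025 genes of the table and 43.0% of the 7428 tested genes in it. The GC box GGGCGG, a site of the Sp1 family, was in 20 of the 22 (90.9%), in 38.2% of all genes and in 69.3% of the tested ones. The E-box CACGTG, a motif read by clock factors and also bound by SREBP proteins, was in 5 of the 22 (22.7%), in 8.09% of all genes and in 12.5% of the tested ones. An exact match to the sterol response element core TCACNCCAC was in Hmgcs1 alone, 1 of 22 (4.55%), beside 1.44% and 1.56%. Only exact matches were searched, so a site that differs from these letters was not counted, and the other genes cannot be said to lack one. To show these letters, 150 bases before the start site are given 5′ to 3′ on the gene's strand. They are given for the 5 members with the largest falls over both treatments that had such a stretch free of annotated exons (GENCODE vM21). Ebp was added as the member with the highest log2 fold change over time (-0.058) among those with such a stretch. Capitals mark the 4 motifs on either strand, and no match overlapped another. In these stretches, Mvk, Mvd and Insig2 held the NF-Y box repeatedly (4, 2 and 3 matches). Hmgcs1 held the sterol response element, a single NF-Y box and 2 GC boxes. Of exact matches to the 4 motifs, Cyp51 held 1 GC box in its stretch, and Ebp held a single NF-Y box and 1 GC box. The full windows held further NF-Y boxes outside the stretches shown. Counted from the start, their first bases were at -237, -176 and 10 in Hmgcs1, -170 in Ebp, -173 in Mvk and -29 in Cyp51. The counts above therefore depend on the stretch chosen.
Mvd, chr8:122443423-122443572, minus strand, ends 1 base before the start: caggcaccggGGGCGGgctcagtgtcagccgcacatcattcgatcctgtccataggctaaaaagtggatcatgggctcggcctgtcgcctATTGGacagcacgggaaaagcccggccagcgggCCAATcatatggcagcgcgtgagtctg
Hmgcs1, chr13:119690201-119690350, plus strand, ends 1 base before the start: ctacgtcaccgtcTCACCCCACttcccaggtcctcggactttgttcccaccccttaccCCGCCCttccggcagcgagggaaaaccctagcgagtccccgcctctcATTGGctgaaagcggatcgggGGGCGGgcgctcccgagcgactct
Insig2, chr1:121332590-121332739, minus strand, ends 1 base before the start: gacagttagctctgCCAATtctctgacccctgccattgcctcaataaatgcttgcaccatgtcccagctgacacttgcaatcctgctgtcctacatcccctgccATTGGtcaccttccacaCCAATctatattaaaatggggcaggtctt
Cyp51, chr5:4104747-4104896, minus strand, ends 50 bases before the start: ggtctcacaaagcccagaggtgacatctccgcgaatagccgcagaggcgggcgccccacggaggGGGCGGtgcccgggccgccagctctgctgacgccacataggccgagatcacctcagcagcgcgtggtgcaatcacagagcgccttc
Mvk, chr5:114444119-114444268, plus strand, ends 1 base before the start: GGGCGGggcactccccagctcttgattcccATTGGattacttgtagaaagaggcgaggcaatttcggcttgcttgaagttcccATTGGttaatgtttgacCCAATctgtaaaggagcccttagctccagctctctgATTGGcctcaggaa
Ebp, chrX:8193513-8193662, minus strand, ends 1 base before the start: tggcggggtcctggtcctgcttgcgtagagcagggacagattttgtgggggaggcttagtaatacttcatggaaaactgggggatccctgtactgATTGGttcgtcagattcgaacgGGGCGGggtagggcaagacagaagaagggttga

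In the first part of the pathway, from acetyl-CoA to the isopentenyl units, 4 of 6 enzymes fell over both treatments, with a median log2 fold change of -1.10. Hmgcs1 (chr13:119690379-119708260 in GENCODE vM21), the cytosolic synthase that joins acetyl-CoA to acetoacetyl-CoA and so opens the mevalonate route, measured 225, 75.1 and 179 FPKM at ZT0 and 43.6, 63.3 and 67.8 FPKM at ZT12 under vehicle. Under Libramed, Hmgcs1 had 165, 289 and 243 FPKM at ZT0 and 50.6, 69.6 and 28.6 FPKM at ZT12. Every ZT12 liver lay below every ZT0 liver, and the mean went from 159.6 ± 76.7 to 58.3 ± 12.8 FPKM under vehicle and from 232 ± 62.7 to 49.6 ± 20.5 FPKM under Libramed (SD, n = 3). Its log2 fold change was -1.79 (SE 0.29, limma adjusted p = 0.000946), and the exact permutation p over livers was 0.005, the smallest that 400 arrangements allow in a two-sided test. Mvd (chr8:122433601-122443422 in GENCODE vM21), the decarboxylase that makes isopentenyl diphosphate, measured 109, 32.6 and 65.3 FPKM at ZT0 and 9.21, 20.6 and 17.5 FPKM at ZT12 under vehicle. Under Libramed, Mvd had 41.3, 80.4 and 82.5 FPKM at ZT0 and 32.5, 20.8 and 7.40 FPKM at ZT12. It had the largest fall of all members, again with no overlap between the times, at a log2 fold change of -1.91 (SE 0.38, limma adjusted p = 0.00339) and an exact p of 0.005. With Insig2, these were the 3 of 25 genes with all 6 ZT12 livers below all 6 ZT0 livers, which held for 5.84% of all genes.

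Mvk, mevalonate kinase, measured 47.7, 21.6 and 36.0 FPKM at ZT0 and 14.9, 21.2 and 24.4 FPKM at ZT12 under vehicle. Under Libramed, Mvk had 38.3, 53.7 and 53.2 FPKM at ZT0 and 17.0, 21.5 and 13.7 FPKM at ZT12. Vehicle ZT0 replicate 2 reached down into the ZT12 range, the Libramed times were fully apart, and the log2 fold change was -1.08 (SE 0.19, limma adjusted p = 0.00180). Idi1, the isopentenyl diphosphate isomerase, was expressed at 5.24, 2.68 and 4.23 FPKM at ZT0 and 1.10, 1.92 and 2.74 FPKM at ZT12 under vehicle. Under Libramed, Idi1 had 4.80, 7.55 and 5.83 FPKM at ZT0 and 1.23, 2.89 and 1.01 FPKM at ZT12. Its vehicle groups overlapped by the same low ZT0 liver and the highest ZT12 liver, and it fell with a log2 fold change of -1.11 (SE 0.20, limma adjusted p = 0.00203). The remaining enzymes of this segment did not pass the test: Acat2, which makes acetoacetyl-CoA, had a mean of 36.7 ± 16.5 FPKM at ZT0 and 24.5 ± 5.47 FPKM at ZT12 under vehicle, 48.1 ± 16.4 and 30.1 ± 7.64 FPKM under Libramed, and a log2 fold change of -0.56 (SE 0.25, limma adjusted p = 0.119). Pmvk, phosphomevalonate kinase, had a mean of 80.0 ± 40.0 and 40.1 ± 17.8 FPKM under vehicle and 103 ± 36.9 and 60.1 ± 30.4 FPKM under Libramed, and its wide spread within groups left a log2 fold change of -0.89 (SE 0.39, limma adjusted p = 0.108) short of the threshold.

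All 3 enzymes from the isopentenyl units to squalene epoxide fell over both treatments, with a median log2 fold change of -1.03. Fdps, which builds farnesyl diphosphate, measured 205, 79.9 and 179.7 FPKM at ZT0 and 46.8, 102 and 101.4 FPKM at ZT12 under vehicle. Under Libramed, Fdps had 162, 203 and 224 FPKM at ZT0 and 129, 109 and 41.2 FPKM at ZT12. The lowest ZT0 liver of vehicle lay among the ZT12 livers, and the log2 fold change was -1.03 (SE 0.33, limma adjusted p = 0.0333). Fdft1, squalene synthase, the step that commits farnesyl units to sterol, measured 72.6, 27.1 and 54.1 FPKM at ZT0 and 21.8, 34.3 and 37.2 FPKM at ZT12 under vehicle. Under Libramed, Fdft1 had 52.8, 72.8 and 80.8 FPKM at ZT0 and 31.2, 37.5 and 19.8 FPKM at ZT12. It fell with a log2 fold change of -0.92 (SE 0.24, limma adjusted p = 0.0149), with the times overlapping under vehicle and apart under Libramed. Sqle, squalene epoxidase, a rate-controlling step, measured 60.6, 30.2 and 52.0 FPKM at ZT0 and 19.2, 26.9 and 29.8 FPKM at ZT12 under vehicle. Under Libramed, Sqle had 45.0, 65.6 and 59.3 FPKM at ZT0 and 31.2, 37.6 and 10.8 FPKM at ZT12. Its times were apart within each treatment, with an exact p of 0.005 over both, and its log2 fold change was -1.04 (SE 0.28, limma adjusted p = 0.0168). Ggps1, which takes isoprenoid to geranylgeranyl diphosphate and so away from sterol, was the only member with a positive value over time in both treatments. Its log2 fold change of 0.18 (SE 0.10, limma adjusted p = 0.215) did not pass the test, with means of 1.94 ± 0.388 and 2.18 ± 0.242 FPKM under vehicle and 1.77 ± 0.202 and 2.34 ± 0.718 FPKM under Libramed. Fdps lost its call without vehicle ZT0 replicate 1 or 3, Libramed ZT0 replicate 2 or 3, vehicle ZT12 replicate 1 or Libramed ZT12 replicate 3, with an adjusted p of up to 0.0743.

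From squalene epoxide to cholesterol, 4 of the 8 enzymes tested fell, with a median log2 fold change of -0.64. Cyp51, the lanosterol demethylase, had the largest fall of this stretch and measured 84.3, 41.2 and 66.3 FPKM at ZT0 and 25.5, 36.9 and 42.2 FPKM at ZT12 under vehicle. Under Libramed, Cyp51 had 71.5, 88.7 and 91.3 FPKM at ZT0 and 24.9, 40.4 and 18.5 FPKM at ZT12. The times were fully apart under Libramed and overlapped narrowly under vehicle, and over both treatments the log2 fold change was -1.22 (SE 0.21, limma adjusted p = 0.00154). Lss, which closes the ring to lanosterol, measured 24.6, 7.95 and 16.5 FPKM at ZT0 and 5.71, 8.86 and 9.87 FPKM at ZT12 under vehicle. Under Libramed, Lss had 13.2, 24.4 and 23.7 FPKM at ZT0 and 12.7, 11.9 and 5.30 FPKM at ZT12. It fell with a log2 fold change of -0.91 (SE 0.28, limma adjusted p = 0.0312), with overlap under vehicle from the low ZT0 liver. Msmo1, a sterol methyl oxidase, measured 231, 97.0 and 174 FPKM at ZT0 and 102, 136 and 160.3 FPKM at ZT12 under vehicle. Under Libramed, Msmo1 had 174, 248 and 228 FPKM at ZT0 and 92.5, 146 and 82.2 FPKM at ZT12. Hsd17b7, a keto-reductase of the same demethylation complex, measured 23.8, 11.3 and 14.7 FPKM at ZT0 and 10.5, 12.1 and 11.3 FPKM at ZT12 under vehicle. Under Libramed, Hsd17b7 had 14.8, 20.8 and 18.3 FPKM at ZT0 and 10.9, 11.8 and 7.34 FPKM at ZT12. Msmo1 fell with a log2 fold change of -0.65 (SE 0.22, limma adjusted p = 0.0411) and Hsd17b7 with -0.63 (SE 0.17, limma adjusted p = 0.0152), both with overlap under vehicle and none under Libramed. Lss and Msmo1 lost their calls without any of the 6 livers named for Fdps, Lss also without vehicle ZT12 replicate 2, and Msmo1 also without vehicle ZT12 replicate 2 or Libramed ZT12 replicate 1 (adjusted p up to 0.0934).

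The other late enzymes did not pass the test over both treatments. Nsdhl, the dehydrogenase that works with Msmo1 and Hsd17b7, had a log2 fold change of -0.63 (SE 0.25, limma adjusted p = 0.0784). Dhcr7, which makes cholesterol in the last step of a main branch, had -0.65 (SE 0.24, limma adjusted p = 0.0579), and Sc5d, the desaturase before it, had -0.46 (SE 0.23, limma adjusted p = 0.158). Ebp stood apart from its neighbours in the pathway, since its means were 215 ± 31.8 FPKM at ZT0 and 188 ± 14.3 FPKM at ZT12 under vehicle and 204 ± 16.8 and 213 ± 20.6 FPKM under Libramed, with a log2 fold change of -0.058 (SE 0.086, limma adjusted p = 0.655). The row shared by Tm7sf2, a sterol reductase, and Vps51 had a mean of 165 ± 50.9 and 164 ± 29.8 FPKM under vehicle and 193 ± 26.6 and 166 ± 44.4 FPKM under Libramed, a log2 fold change of -0.10 (SE 0.18, limma adjusted p = 0.704), and cannot be split between the genes.

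Among the regulators, the sharpest change was that of Insig2 (chr1:121304353-121332589 in GENCODE vM21), which encodes a protein that holds SCAP in the endoplasmic reticulum. Insig2 measured 107, 113 and 116 FPKM at ZT0 and 48.0, 46.0 and 38.5 FPKM at ZT12 under vehicle. Under Libramed, Insig2 had 121, 88.3 and 102 FPKM at ZT0 and 47.7, 37.4 and 41.4 FPKM at ZT12. The highest ZT12 liver had 48.0 FPKM and the lowest ZT0 liver 88.3 FPKM. Its log2 fold change was -1.30 (SE 0.09, limma adjusted p = 5.2e-06), with an exact permutation p of 0.005 and the smallest SE among the 8 members whose log2 fold change was below -1. Insig1, its paralogue and itself a target of SREBP-2, measured 149, 60.5 and 123 FPKM at ZT0 and 40.5, 67.2 and 56.4 FPKM at ZT12 under vehicle. Under Libramed, Insig1 had 86.6, 115 and 136 FPKM at ZT0 and 103, 62.2 and 50.7 FPKM at ZT12. Insig1 was as variable as the enzymes, with vehicle ZT0 replicate 2 and Libramed ZT12 replicate 1 inside the range of the other time, and it fell with a log2 fold change of -0.81 (SE 0.24, limma adjusted p = 0.0267). That call was lost without any of the 6 livers named for Fdps or without Libramed ZT12 replicate 2 (adjusted p up to 0.0647).

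Srebf2, which encodes SREBP-2 itself, measured 20.6, 14.1 and 17.1 FPKM at ZT0 and 11.7, 16.2 and 18.8 FPKM at ZT12 under vehicle. Under Libramed, Srebf2 had 17.3, 23.0 and 19.1 FPKM at ZT0 and 13.99, 15.9 and 13.4 FPKM at ZT12. Its vehicle groups overlapped and its Libramed groups did not, and the log2 fold change of -0.29 (SE 0.12, limma adjusted p = 0.0996) did not pass. Scap, the escort of SREBP-2, measured 36.6, 40.5 and 41.9 FPKM at ZT0 and 33.7, 37.0 and 39.0 FPKM at ZT12 under vehicle. Under Libramed, Scap had 41.9, 47.8 and 44.9 FPKM at ZT0 and 37.8, 39.6 and 37.4 FPKM at ZT12. Its log2 fold change was small, -0.17 (SE 0.059, limma adjusted p = 0.0494), and its call was lost with any of 9 livers left out, the exceptions being vehicle ZT0 replicate 1, Libramed ZT0 replicate 1 and vehicle ZT12 replicate 3. Mylip, a ubiquitin ligase that is switched on by the sterol sensor LXR and limits cholesterol uptake, measured 0.893, 2.08 and 1.38 FPKM at ZT0 and 1.56, 0.978 and 0.915 FPKM at ZT12 under vehicle. Under Libramed, Mylip had 1.63, 1.83 and 1.94 FPKM at ZT0 and 0.745, 0.857 and 0.932 FPKM at ZT12. These levels are near 1 FPKM, the vehicle groups overlapped, and the call, at a log2 fold change of -0.39 (SE 0.12, limma adjusted p = 0.0269), was lost without Libramed ZT0 replicate 2 or 3, vehicle ZT12 replicate 2 or 3, or Libramed ZT12 replicate 1.

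Stard4, a carrier of free sterol between membranes, measured 13.6, 10.4 and 11.9 FPKM at ZT0 and 7.29, 12.4 and 9.04 FPKM at ZT12 under vehicle. Under Libramed, Stard4 had 9.19, 13.5 and 13.4 FPKM at ZT0 and 7.53, 9.10 and 6.55 FPKM at ZT12. It fell with a log2 fold change of -0.44 (SE 0.14, limma adjusted p = 0.0295), a call lost without any of the 6 livers named for Fdps, vehicle ZT12 replicate 3 or Libramed ZT12 replicate 1. Soat2, the acyltransferase that stores cholesterol as ester in hepatocytes, had a mean of 24.0 ± 3.81 FPKM at ZT0 and 23.7 ± 2.64 FPKM at ZT12 under vehicle and of 29.1 ± 2.10 and 22.6 ± 0.914 FPKM under Libramed, with a log2 fold change of -0.18 (SE 0.083, limma adjusted p = 0.122). Soat1, the form found mainly outside hepatocytes, lay between 0.0800 and 0.249 FPKM in the 12 livers and was not tested.

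Within the vehicle livers alone, 24 of 25 genes were lower at ZT12, with a median log2 fold change of -0.56 (0.0078 for all genes), but few passed. Mvd, at -1.97 (SE 0.46, limma adjusted p = 0.0423), and Insig2, at -1.33 (SE 0.10, limma adjusted p = 0.00258), fell with an adjusted p under 0.05, which is 2 of 25 where 4.78% of all genes fell. At an unadjusted p under 0.05, 8 genes fell (13.0% of all genes): Hmgcs1, Mvk, Mvd, Idi1, Sqle, Cyp51, Insig1 and Insig2. In 4 genes (Hmgcs1, Mvd, Sqle and Insig2), all ZT12 livers lay below all ZT0 livers, which was so for 15.8% of all genes. Exact tests of 3 against 3 livers cannot go below p = 0.1, which these 4 reached. Without vehicle ZT0 replicate 2, the liver with the lowest enzymes, 9 of 25 genes passed and the median was -0.91. Without any other of the 6 livers Mvd lost its call (adjusted p up to 0.128) and 1 gene passed, Insig2, and the median was -0.33 without vehicle ZT0 replicate 1. By Cyber-T, a test that pools the variance of genes of like level, 10 genes passed, where 6.58% of all genes fell, and without the minimum FPKM 1 did, where 1.5001% fell.

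Within the Libramed livers, 23 of 25 genes were lower at ZT12 and 10 passed, where 5.36% of all genes fell, with a median log2 fold change of -0.85 (0.013 for all genes). Of the enzymes, Hmgcs1 fell with a log2 fold change of -2.26 (SE 0.33, limma adjusted p = 0.00856), Cyp51 with -1.61 (SE 0.26, limma adjusted p = 0.0110), Mvk with -1.43 (SE 0.19, limma adjusted p = 0.00584) and Idi1 with -1.43 (SE 0.26, limma adjusted p = 0.0171). Fdft1 fell with a log2 fold change of -1.22 (SE 0.25, limma adjusted p = 0.0239), Msmo1 with -1.04 (SE 0.23, limma adjusted p = 0.0303) and Hsd17b7 with -0.80 (SE 0.19, limma adjusted p = 0.0372). The enzymes that passed thus ran from the opening of the mevalonate route to the demethylation of lanosterol. Of the other genes, Insig2 fell with a log2 fold change of -1.28 (SE 0.14, limma adjusted p = 0.00342), Mylip with -0.60 (SE 0.089, limma adjusted p = 0.00859) and Soat2 with -0.35 (SE 0.084, limma adjusted p = 0.0390). At an unadjusted p under 0.05, 20 genes fell (13.4% of all genes), and 19 had all ZT12 livers below all ZT0 livers (15.8% of all genes). Hmgcs1, Mvk, Cyp51, Insig2 and Mylip passed with any of the 6 livers left out. Idi1 lost its call without Libramed ZT0 replicate 2 or 3 or ZT12 replicate 3, Fdft1 without ZT0 replicate 2 or 3, Msmo1 without ZT0 replicate 2 or 3 or ZT12 replicate 1 or 3, Hsd17b7 without any liver but ZT0 replicate 1, and Soat2 without any of the 6. The count was 5 without Libramed ZT0 replicate 2 or 3 and 6 without Libramed ZT12 replicate 3. It was 19 by Cyber-T, where 7.45% of all genes fell, and 4 without the minimum FPKM, where 1.59% fell.

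More genes passed under Libramed than under vehicle, but the treatments were not shown to differ in the change over time. In the interaction of time and treatment over the 12 livers, 0 of 25 genes had an unadjusted p under 0.05 in limma, where 6.63% of all genes did, and 0 of all genes had an adjusted p under 0.05. The interaction was negative, meaning a more negative change under Libramed, in 18 of 25 genes, with a median of -0.28 (0.0047 for all genes). The largest values were those of Hmgcs1, -0.93 (SE 0.58, limma adjusted p = 0.829), Cyp51, -0.79 (SE 0.43, limma adjusted p = 0.789), and Msmo1, -0.77 (SE 0.43, limma adjusted p = 0.798). The median ranged from -0.44, without vehicle ZT0 replicate 1 or Libramed ZT0 replicate 1, to -0.095, without Libramed ZT12 replicate 3. The count with p under 0.05 was 5 without vehicle ZT0 replicate 1 (Cyp51, Hsd17b7, Msmo1, Mvk and Soat2), where 9.14% of all genes had such a p and the limma adjusted p of the 5 was 0.464 to 0.517. It was 3 without vehicle ZT12 replicate 1 (Cyp51, Mvk and Soat2) or Libramed ZT12 replicate 2 (Cyp51, Idi1 and Msmo1), 2 without vehicle ZT0 replicate 2 (Ebp, with a positive value, and Mylip) and 1 without Libramed ZT0 replicate 1 (Soat2), where 6.18% to 6.996% of all genes did.

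The level of these genes was also compared between Libramed and vehicle, the contrast of the tested product. At ZT0, 21 of 25 genes were higher under Libramed, with a median log2 fold change of 0.29 (-0.02 for all genes), and 0 had an unadjusted p under 0.05 in limma, where 9.23% of all genes did. The largest values were those of Hmgcs1, 0.64 (SE 0.41, limma adjusted p = 0.683), Mvk, 0.51 (SE 0.28, limma adjusted p = 0.638), and Fdft1, 0.50 (SE 0.34, limma adjusted p = 0.704), all within the spread of the livers. In the same comparison all 5 stellate markers tested were higher (median log2 fold change 0.28), Des with p under 0.05, and 4 of 5 endothelial markers were higher (median 0.14), Kdr with p under 0.05. Of 6 macrophage markers tested 5 were lower (median -0.475), and Vsig4, Cd68 and Clec4f had p under 0.05. Of 7 hepatocyte markers tested 4 were lower (median -0.0048), Fgb with p under 0.05. None of these markers had an adjusted p under 0.05, and their part in the values of the sterol genes was not tested. For Hmgcs1 the vehicle livers ran from 75.1 to 225 FPKM and the Libramed livers from 165 to 289 FPKM. The median was 0.029 without vehicle ZT0 replicate 2, 0.51 without vehicle ZT0 replicate 1 and 0.47 without Libramed ZT0 replicate 1. Without vehicle ZT0 replicate 1, 7 genes had p under 0.05, all higher (Cyp51, Fdft1, Hsd17b7, Idi1, Msmo1, Mvk and Soat2), where 12.1% of all genes did in that fit. Their limma adjusted p was 0.371 to 0.401. A single gene had p under 0.05 without vehicle ZT0 replicate 2 (Mylip) or Libramed ZT0 replicate 1 (Idi1). By Cyber-T, 4 genes had p under 0.05 at ZT0 (Hmgcs1, Mvk, Idi1 and Cyp51), where 8.62% of all genes did, with an adjusted p of at least 0.278.

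At ZT12, 14 genes were lower and 11 higher under Libramed, with a median of -0.067 (-0.014 for all genes), and 0 had p under 0.05, where 6.74% of all genes did. Pmvk was at 0.53 (SE 0.52, limma adjusted p = 0.834), Insig1 at 0.35 (SE 0.28, limma adjusted p = 0.781) and Cyp51 at -0.35 (SE 0.30, limma adjusted p = 0.797). This median changed sign, being 0.08 without Libramed ZT12 replicate 3, 0.056 without vehicle ZT12 replicate 3 and 0.0022 without vehicle ZT12 replicate 2. Without Libramed ZT12 replicate 3, 5 genes had p under 0.05, all higher (Acat2, Ebp, Lss, Pmvk and Sc5d), where 9.07% of all genes did, and their limma adjusted p was 0.533 to 0.544. Without Libramed ZT12 replicate 2, 2 genes did, both lower (Cyp51 and Msmo1, adjusted p 0.842), where 5.42% of all genes did. With all ZT12 livers, 5 of 7 hepatocyte markers tested were higher under Libramed (median log2 fold change 0.18). Ass1 and Cps1 were higher and Fgb lower with p under 0.05. Of 5 stellate markers tested 3 were lower (median -0.01), but Des was higher with p under 0.05. No endothelial or macrophage marker had such a p. None of the markers had an adjusted p under 0.05, and their part was not tested.

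Over both times, 21 of 25 genes were higher under Libramed, with a median of 0.14 (-0.019 for all genes), and 0 had p under 0.05 in limma, where 10.5% of all genes did. Pmvk, at 0.49 (SE 0.39, limma adjusted p = 0.676), Acat2, at 0.35 (SE 0.25, limma adjusted p = 0.636), and Lss, at 0.30 (SE 0.28, limma adjusted p = 0.727), had the largest values. Scap had the smallest p, with a log2 fold change of 0.12, a limma p of 0.0645 (adjusted p 0.507) and an exact permutation p of 0.0450. Scap had a limma p under 0.05 without vehicle ZT0 replicate 3, Libramed ZT0 replicate 1 or vehicle ZT12 replicate 3. The median of the 25 genes ranged from 0.013, without vehicle ZT0 replicate 2, to 0.27, without Libramed ZT12 replicate 3 or vehicle ZT0 replicate 1. Some cell markers had a limma p under 0.05 over both times, and none an adjusted p under 0.05. Ass1 (log2 fold change 0.53), Cps1 (0.18), Des (0.37) and Kdr (0.23) were higher, and Fgb (-0.29) and Vsig4 (-0.42) lower. The time comparisons within a treatment and the treatment comparisons within a time share livers, so their values are not independent of each other.

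**Figure D4:**
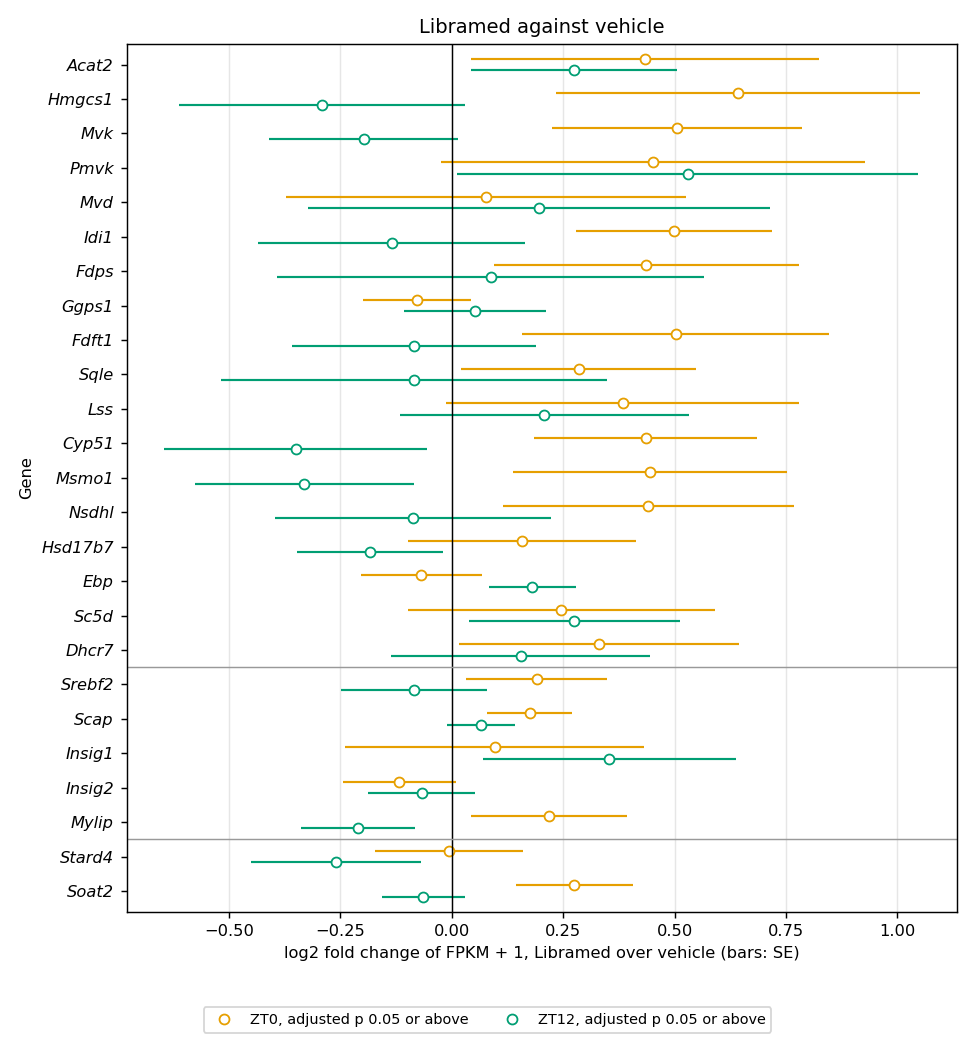
Log2 fold change of FPKM + 1 of Libramed over vehicle for the 25 genes tested, with bars of 1 SE, at ZT0 (orange) and ZT12 (green), 3 livers in each group. All points are open because no gene had an adjusted p under 0.05, and 21 of 25 orange points but 11 of 25 green points lie to the right of 0.

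Other genes next to the pathway, not among the 27, were compared over time in the same way. Over both treatments 1378 of all 9806 genes fell (14.1%) and 1563 rose, and the small lists here were not tested against that share. Of 7 other sterol enzymes and SREBP-2 targets, 4 were lower and 3 higher at ZT12 over both treatments, 0 fell and 1 rose, with a median log2 fold change of -0.053. The gene that rose was Por, the reductase that feeds electrons to Cyp51 and to the drug-metabolizing P450 enzymes, at 2.27 (SE 0.22, limma adjusted p = 3.9e-05), opposite to Cyp51 itself. Of 8 genes tested of SREBP processing and its control in the endoplasmic reticulum, 1 fell, Erlin1, at -0.22 (SE 0.066, limma adjusted p = 0.0299), and the median was -0.036. Of 9 genes that lead isoprenoids to other products, 2 fell, Fntb, a farnesyltransferase subunit, at -0.45 (SE 0.087, limma adjusted p = 0.00286), and Dhdds, of dolichol synthesis, at -0.23 (SE 0.068, limma adjusted p = 0.0228), with a median of -0.12. Of 4 genes tested on the sterol-sensing LXR side and of lysosomal export, 0 passed, and the median was 0.031.

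Between Libramed and vehicle, 2 of these neighbours had an unadjusted p under 0.05 at ZT0 (9.23% of all genes), 1 at ZT12 (6.74%) and 4 over both times (10.5%), and none had an adjusted p under 0.05. Rnf145, a ligase of the endoplasmic reticulum, was at 0.31 (SE 0.11, limma adjusted p = 0.506) at ZT0 and Erlin2 at -0.15 (SE 0.067, limma adjusted p = 0.468) over both times. Fntb was at -0.37 (SE 0.11, limma adjusted p = 0.482) at ZT0 and -0.26 (SE 0.087, limma adjusted p = 0.368) over both times. Pdss2, of coenzyme Q synthesis, was at -0.39 (SE 0.15, limma adjusted p = 0.729) at ZT12 and -0.26 (SE 0.092, limma adjusted p = 0.376) over both times, and Icmt, which methylates prenylated proteins, was at -0.15 (SE 0.059, limma adjusted p = 0.428) over both times.

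Markers of other liver cells changed with time as well. All 5 endothelial markers tested fell over both treatments, Kdr with a log2 fold change of -0.46 (SE 0.071, limma adjusted p = 0.000771) and Clec4g with -0.76 (SE 0.14, limma adjusted p = 0.00181). The endothelial sum was 26.5 to 42.4 FPKM at ZT0 and 13.5 to 23.1 FPKM at ZT12. Of 5 stellate markers tested, 4 fell, among them Col3a1 with -0.60 (SE 0.15, limma adjusted p = 0.0103) and Des with -0.40 (SE 0.079, limma adjusted p = 0.00317). The stellate sum was 32.6 to 67.1 FPKM at ZT0 and 24.5 to 46.7 FPKM at ZT12. Among hepatocyte markers, Fgb fell with a log2 fold change of -0.39 (SE 0.069, limma adjusted p = 0.00162) and Hnf4a rose with 0.31 (SE 0.067, limma adjusted p = 0.00577). Macrophage markers summed to 26.8 to 49.2 FPKM at ZT0 and 21.0 to 52.9 FPKM at ZT12, and 1 of 6 tested fell, Lyz2 with -0.63 (SE 0.20, limma adjusted p = 0.0356). The part of these cells in the fall of the sterol genes was not tested.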

How the data were processed

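RNA-seq of 12 livers, 3 in each of 4 groups that were read from the labels, was analysed from the table the authors deposited, whose values are FPKM per gene and liver. For the alignment to mm10, the study's methods name ELAND with uniquely aligned reads and RPKM as the unit, whereas the submitters' processing notes name TopHat and Cuffnorm. With single-end reads both units are the same. Where only unique reads are kept, genes with near copies, such as Acat2, are uncertain. Read counts and depths are unknown here, so no counting intervals are given. Of 24138 lines, 289 repeated a symbol, and of each such set only the most highly expressed line entered the analysis. Genes averaging 1 FPKM or more over the livers were tested on log2(FPKM + 1) with limma 3.58.1 (R 4.3.3; eBayes with trend) and Benjamini-Hochberg adjustment over 9806 genes. Calls needed an adjusted p under 0.05, and counts at p under 0.05 are also given. Time and treatment were each tested within the 6 livers of a stratum and over all 12 with the other factor as covariate, and their interaction over all 12. Single genes were also tested with exact two-sided permutation over livers. The scripts were tested on simulated data. The members and lists were chosen with earlier results of these data known. All 27 genes are named, with values per liver for genes that fell over both treatments and for the regulators. In each treatment comparison and the interaction, the 3 largest fold changes are named.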

Additional observations from a re-analysis of the deposited data

How the results depend on the processing

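The direction of the time change held under every alternative run, which were pseudocount 0.1, dropping the minimum level or raising it to a mean of 5 FPKM, no trend, median-ratio scaling, quantile normalization, a fit of all 12 livers, Cyber-T for the pairwise comparisons, a replicate block and leaving out each liver. Over the 40 fold changes named for single genes and 684 alternatives to them, 0 changed sign and 98 lost their call. The treatment and interaction values among the 40 had no call to lose, so all 98 were of changes over time.

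Under vehicle, 2 genes fell with time, and the count was 1 with no minimum FPKM, 10 by Cyber-T and 1 to 9 with a liver left out. Under Libramed, 10 genes fell, and the count was 4 with no minimum FPKM, 19 by Cyber-T and 5 to 10 with a liver left out. Over both treatments, 16 fell, and 9 to 21 with a liver left out. For Libramed against vehicle, the count of genes with p under 0.05 was 0 at ZT0, 1 with quantile normalization or a fit of all 12 livers (Soat2), 4 by Cyber-T and 0 to 7 with a liver left out. At ZT12 it was 0, and 0 to 5 with a liver left out. Over both times it was 0, 1 with no minimum FPKM or median-ratio scaling (Scap), and 0 to 1 with a liver left out. For the interaction it was 0, 1 with quantile normalization (Soat2), and 0 to 5 with a liver left out. The causes were not tested.

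Livers with the same replicate number did not deviate together (correlations from -0.279 to 0.341), so the numbers were not taken to pair livers. With a replicate block the count was 1 under vehicle (2 without), 7 under Libramed (10 without) and 13 over both treatments (16 without) for time, and 1 (Scap) for Libramed against vehicle over both times (0 without).

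Depth is unknown, and 3 livers a group with a wide spread in these genes limit what the treatment comparisons can show.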
